A study of Mus musculus with 24 samples.

Results

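The clustered protocadherins are a family of cell-surface adhesion proteins of the cadherin superfamily, encoded side by side in the α, β and γ clusters on mouse chromosome 18. The members described here were chosen by gene symbol alone, as every entry of the deposited gene table whose symbol begins with Pcdha, Pcdhb and a digit, or Pcdhga, Pcdhgb or Pcdhgc. This gave 58 entries of 53465 in the table, carrying 57 symbols, because Pcdha11 stands for 2 identifiers. They comprised 12 α genes, 22 β genes, 12 γA genes, 7 γB genes and the 5 C-type genes Pcdhac1, Pcdhac2, Pcdhgc3, Pcdhgc4 and Pcdhgc5. Reads were counted in at least 1 of the 24 libraries for 55 of the 58, and 3 α genes (Pcdha2, Pcdha4 and Pcdha7) had no read in any library. The family as such was selected with earlier results of these libraries known, so its counts of changed genes are a description and give no independent support to any direction.

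Each α or γ transcript joins a variable exon, read from a promoter of its own, to constant exons shared by the whole cluster, whereas each β gene is encoded in a single exon and lacks that shared tail. In neurons, a few promoters are chosen per cell through CTCF, cohesin and DNA methylation, and the resulting proteins bind like to like between membranes, so that a neuron can tell its own branches from those of its neighbours. The C-type isoforms at the ends of the α and γ clusters are less subject to this choice and are found in many cells. Outside the nervous system, methylation of the clusters has been described in several epithelial cancers, breast cancer included.

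The libraries came from 12 tumours of the 2153L line, a transplantable mouse model of triple-negative breast cancer that carries a p53 knockout in every group. Fresh tumour fragments were grown in the cleared mammary fat pads of female BALB/c mice aged 6 to 8 weeks at transplantation, and treatment began after randomization at a volume of about 100 mm3. Combination mice received ORIN1001, an inhibitor of the RNase activity of the stress sensor IRE1α (150 mg/kg by daily gavage), with the microtubule drug docetaxel (10 mg/kg by weekly intraperitoneal injection). Docetaxel mice received docetaxel with vehicle, ORIN1001 mice received ORIN1001 with vehicle, and vehicle mice received neither drug. From each of the 3 tumours per treatment, total RNA was sequenced as an input library and, after immunoprecipitation with the J2 antibody against double-stranded RNA, as a J2 library, giving 8 groups of 3. The study's title concerns the silencing of double-stranded RNA by IRE1α. The RNA is that of bulk tumours from 1 transplanted line, with host stroma and immune cells included, so fewer cells of a type and less RNA per cell cannot be told apart.

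Gene counts ranged between 3.27 and 63.3 M reads in the inputs and between 2.54 and 18.7 M in the J2 libraries. Docetaxel input 3 stood apart: it was the shallowest input, loci of ribosomal RNA took 67.1% of its gene counts, where the remaining inputs had 0.433 to 2.86%, and it held only 125 reads of the family. The combination J2 libraries were also shallow (2.54, 4.69 and 11.0 M) and rich in ribosomal RNA (37.9%, 56.6% and 22.7%, against 1.25 to 13.8% in the other J2 libraries). Results that rest on these libraries are given with and without them where that changes a count, and the part of ribosomal RNA in them was not tested. Levels below are CPM, the usual library-scaled unit of read counts, after TMM scaling of all 24 libraries together. On that scale 3 reads, the limit that a count of 0 allows, stood for 0.0402 to 3.48 CPM in the inputs, the highest value being that of docetaxel input 3, and for 0.153 to 1.60 CPM in the J2 libraries. Trp53, the gene knocked out in the line, still collected reads at 20.9 to 53.7 CPM in the inputs. With no wild-type tumour among the samples and the altered stretch not given, that value checks no label. The epithelial marker genes Epcam, Krt8, Krt18, Krt5, Krt14, Krt19, Cdh1 and Cldn4 were detected in every input group and summed to 1546 to 2570 CPM. Neuronal markers were near 0 apart from Map2: Elavl4 was at 0 in all inputs, and Map2 averaged 53.7 CPM in combination, 93.3 in docetaxel, 95.9 in ORIN1001 and 95.4 in vehicle inputs.

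The family was read from its β and γ clusters and hardly at all from its α cluster. The 12 α genes together collected 15 reads over the 12 inputs and 15 over the 12 J2 libraries, with no gene above 3 reads in a library and none past the low-count filter (edgeR's filterByExpr, a minimum count of 10 scaled to depth in as many libraries as the smallest group has). The α genes with the most input reads were Pcdha12 (4 reads), Pcdha9 (3) and the Pcdha11 entry with 3. The C-type genes at the end of the α cluster were also close to silent: Pcdhac1 had 1 input read, and Pcdhac2, which in mouse neurons is needed for the even spread of serotonergic axons, had 23, of which 18 came from vehicle tumour 1. The α cluster spans chr18:36930285-37188897, the β cluster chr18:37264998-37521419 and the γ cluster chr18:37661775-37841873 in RefSeq's GRCm38.p6 annotation. RefSeq draws the γ genes to nearly the same shared end, apart from Pcdhgb8, which stops at chr18:37840489. The gene spans therefore overlap, and reads in the constant exons cannot be given to a single γ gene.

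In total the inputs held 51358 reads of the family and the J2 libraries 21144. Of these, the C-type genes took 26918 input reads, the β genes 14126, the γB genes 8185 and the γA genes 2114. A single gene, Pcdhgc3 (chr18:37806410-37841873), held 26184 of the input reads. Pcdhgc3 encodes a C-type γ isoform that in mouse cortical neurons binds Axin1 and dampens Wnt signalling. After it, the members with the highest mean over the inputs were Pcdhgb5 at 10.8 CPM, Pcdhb17 at 9.97 CPM, Pcdhgb8, annotated as a transcribed pseudogene, at 6.80 CPM, Pcdhb16 at 6.51 CPM and Pcdhb19 at 5.97 CPM. The order of the last 3 turns without docetaxel input 3, where Pcdhb19 averaged 6.52 CPM, Pcdhb16 6.15 and Pcdhgb8 5.52. These are read counts without correction for length, since which exons were counted for an α or γ gene is not known here, so they set no order of expression between clusters. In the inputs 16 members had a read in all 12 libraries, and 27 passed the low-count filter: 11 β, 7 γA, 6 γB and 3 C-type genes. In the J2 libraries with their inputs 26 passed. The members just inside the input filter were Pcdhga6 with 85 reads over the 12 inputs and Pcdhga8 with 103, and those just outside were Pcdhb5 with 77 and Pcdhb11 with 76.

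**Figure D1:**
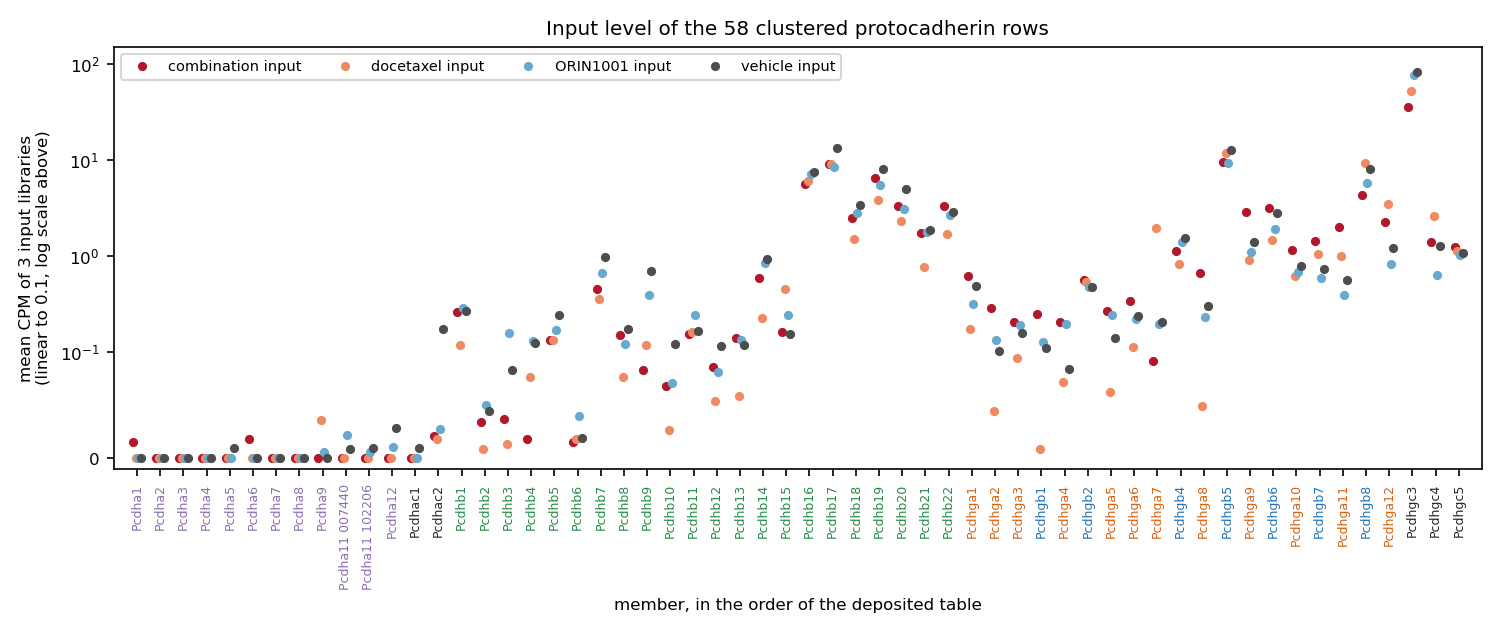
Mean input level of the 58 clustered protocadherin entries in the order of the deposited table, in CPM (linear to 0.1 and logarithmic above), with 1 point per treatment (n = 3 libraries each). The α genes lie at or next to 0, the β genes climb towards the Pcdhb16 to Pcdhb22 end of their cluster, and Pcdhgc3 lies above every other member.

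Within the β cluster, where each gene's length is known, the reads came mostly from the end of the cluster nearest the γ genes. Per kilobase of gene, Pcdhb17 averaged 3.05 CPM over the inputs, Pcdhb19 1.27, Pcdhb16 1.24 and Pcdhb20 1.01. Pcdhb22 (0.853 CPM per kilobase), Pcdhb21 (0.564) and Pcdhb18 (0.501) followed, and the other 15 β genes lay between 0.00639 for Pcdhb6 and 0.187 for Pcdhb14. The 7 genes Pcdhb16 to Pcdhb22, a stretch chosen after the values were seen, held 86.3 to 95.2% of the β reads in the single inputs and 92.7 to 98.3% in the J2 libraries. That concentration was thus present in every library of every treatment. The β proteins share the extracellular cadherin repeats of the family without the constant cytoplasmic tail, and no separate function is known for most of them.

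Summed over the family, combination inputs had 97.2, 112 and 102 CPM, docetaxel inputs 85.2, 117 and 145, ORIN1001 inputs 119, 137 and 155, and vehicle inputs 174, 144 and 172. All combination inputs and docetaxel inputs 1 and 2 lay below every vehicle input, while docetaxel input 3 and ORIN1001 input 3 did not. The value of docetaxel input 3 rests on 125 reads and on the scaling: per raw M of gene counts it had 38.2 family reads, against 165 to 215 in the vehicle inputs. The chemosensory receptor genes, a set that a mammary tumour should not express, summed to 147 CPM in that library, above the family's own 145. The group means were 104 ± 7.34 CPM in combination, 116 ± 30.0 in docetaxel, 137 ± 17.6 in ORIN1001 and 163 ± 17.1 in vehicle inputs (SD, n = 3 each). In the J2 libraries the sums averaged 178 ± 48.4 CPM in combination, 120 ± 16.6 in docetaxel, 118 ± 14.7 in ORIN1001 and 180 ± 27.0 in vehicle tumours (SD, n = 3 each). These sums are descriptions without a test, and another scaling moves them: on raw gene totals combination J2 averaged 122 CPM.

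Of the difference in the family's mean between combination and vehicle inputs, Pcdhgc3 accounted for 79.3%. Between docetaxel and vehicle inputs it accounted for 65.2%, or 48.4% without docetaxel input 3. It had 41.8, 25.5 and 38.8 CPM in the inputs of combination tumours, 40.9, 64.4 and 49.9 in docetaxel tumours, 63.3, 77.1 and 88.3 in ORIN1001 tumours, and 89.5, 66.6 and 91.8 in vehicle tumours. Combination and docetaxel tumours lay below every vehicle tumour, with docetaxel tumour 2 only just so, and ORIN1001 tumours overlapped with vehicle. The reads behind the extremes were 759, 406 and 834 in combination against 3117, 2665 and 3388 in vehicle inputs. The group means were 35.4 ± 8.65 CPM in combination, 51.7 ± 11.9 in docetaxel, 76.2 ± 12.5 in ORIN1001 and 82.6 ± 13.9 in vehicle inputs (SD, n = 3 each).

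**Figure D2:**
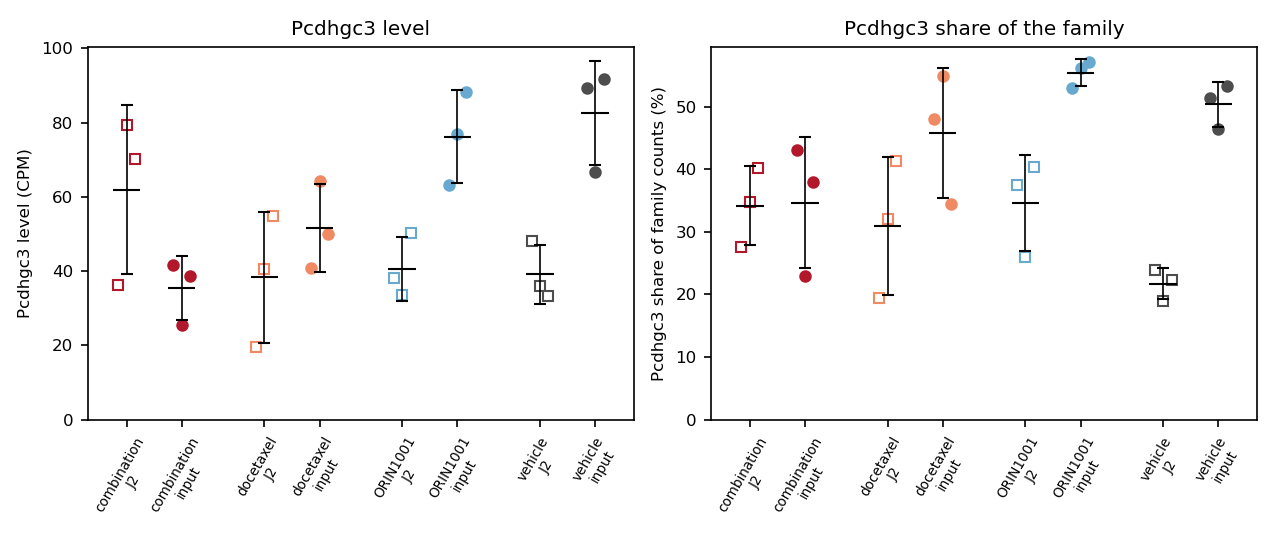
Pcdhgc3 in CPM (left) and as a share of the family's reads (%, right), with 1 point per library (open for J2, filled for input), a line for the mean and bars for the SD of 3 tumours. In the inputs the combination tumours (25.5 to 41.8 CPM) lie below the vehicle tumours (66.6 to 91.8 CPM), and in the J2 libraries the combination mean of 61.9 CPM lies above the vehicle mean of 39.1 CPM.

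In combination tumours against vehicle, the input RNA held less Pcdhgc3 and less Pcdhb9, and no member passed the test in the other direction. Pcdhgc3 was at 0.441 times the vehicle level, a log2 fold change of -1.18 ± 0.24 (SE; edgeR's quasi-likelihood test, Benjamini-Hochberg adjusted p = 0.0348). Pcdhb9, a β gene, had 0.110, 0 and 0.140 CPM in combination inputs (2, 0 and 3 reads) against 0.632, 0.750 and 0.705 CPM in vehicle inputs (22, 30 and 26 reads). The groups did not overlap, and its log2 fold change was -2.88 ± 0.57 (SE; adjusted p = 0.0348). The 2 genes are 2 of 27 members tested, and over all genes tested the share called was 4.77%. The members' median log2 fold change was -0.01 beside -0.03 over all genes, with 14 below and 13 above 0. Of the β genes 10 of 11 lay below 0, and of the γ cluster 12 of 16 lay above.

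Single libraries decided these calls. Leaving out vehicle tumour 1, 2 or 3, ORIN1001 tumour 1, 2 or 3, or combination tumour 2 or 3 lost both, with adjusted p up to 0.142 for Pcdhgc3 (log2 fold change -1.34 to -0.97 over all alternatives) and up to 0.137 for Pcdhb9 (-3.47 to -2.23). A block by replicate number gave an adjusted p of 0.0717 for each. Over the alternatives the smallest adjusted p was 0.00137 for Pcdhgc3 and 0.00144 for Pcdhb9.

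Without regard to the test, 8 members had all 3 combination inputs below all 3 vehicle inputs: Pcdhb7, Pcdhb9, Pcdhb17, Pcdhb18, Pcdhb20, Pcdhgb5, Pcdhgb8 and Pcdhgc3. How many of all genes lay apart in this way was not counted, so the number cannot be set against the rest. By edgeR's test 4892 of 17768 genes had an unadjusted p under 0.05, 4 of the 27 tested members among them. Pcdhb17, the β gene with the highest level per kilobase, had 9.25, 9.19 and 8.84 CPM in combination inputs against 12.9, 13.1 and 13.4 CPM in vehicle inputs. Pcdhgb5 had 9.58, 10.8 and 8.38 CPM in combination inputs against 12.1, 14.2 and 11.9 CPM in vehicle inputs. Only Pcdhga11 lay the other way, with 0.881, 3.46 and 1.68 CPM in combination inputs (16, 55 and 36 reads) against 0.574, 0.475 and 0.623 CPM in vehicle inputs (20, 19 and 23 reads). Its log2 fold change of 1.87 ± 0.55 (SE) did not pass edgeR's test at an adjusted p of 0.0639. Combination tumour 2 had the highest Pcdhga11 and, at 16.8%, the largest γA share of the family's reads among the inputs, against 5.67 and 8.39% in the other combination tumours and 2.77 to 4.37% in vehicle tumours.

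Marker sums of other cell types also lay apart in combination inputs, and their part in these differences was not tested. The 6 T cell markers summed to 14.1 to 24.5 CPM in combination against 5.74 to 7.32 CPM in vehicle inputs, and the 6 neutrophil markers to 19.0 to 29.9 against 41.7 to 88.0 CPM. None of the T cell markers passed edgeR's test, and 2 of 5 tested neutrophil markers were lower. The 8 Schwann cell markers summed to 519 to 609 CPM in combination against 722 to 932 CPM in vehicle inputs. The share of reads on repeat families, out of genes and repeats together, was 19.6%, 29.5% and 21.4% in combination against 13.6%, 11.0% and 15.4% in vehicle inputs. The chemosensory receptor genes summed to 22.1 to 24.7 CPM in combination inputs and 8.57 to 15.3 CPM in vehicle inputs.

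In docetaxel tumours against vehicle no member passed edgeR's quasi-likelihood test, and neither did any other gene, a share of 0.0% of 17768. At an unadjusted p under 0.05 there were 1857 genes, 5 of them members; DESeq2 called 131 genes and limma-voom 27, none of them members. The members' fitted values nonetheless lay low: 26 of 27 were below 0, all 11 β genes among them, with a median log2 fold change of -0.78 beside -0.07 over all genes. Without docetaxel tumour 3, 31 of 33 members lay below 0 with a median of -0.82 beside -0.03 over all genes, and the count called stayed at 0. Pcdhb9 had the smallest p at -2.03 ± 0.54 (SE; adjusted p = 0.426), with 0.161, 0.187 and 0 CPM in docetaxel inputs against 0.632, 0.750 and 0.705 in vehicle inputs. Pcdhb14 followed at -1.55 ± 0.47 and Pcdhb20 at -0.96 ± 0.29 (SE). Pcdhb20 had 2.84, 2.84 and 1.16 CPM in docetaxel inputs against 4.28, 5.15 and 5.50 CPM in vehicle inputs, without overlap. The log2 fold change of Pcdhgc3 was -0.71 ± 0.24 (SE). In all, 15 of the 58 members had every docetaxel input below every vehicle input, a count not made over all genes. In docetaxel input 3 that includes zeros which allow up to 3.48 CPM.

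In ORIN1001 tumours against vehicle no member passed edgeR's test and no gene did, again 0.0%. At an unadjusted p under 0.05 there were 787 genes, 2 of them members; DESeq2 called 34 genes and limma-voom 2, none of them members. The fitted values of 26 of 27 members lay below 0, with a median log2 fold change of -0.35 beside -0.01 over all genes. The comparison shares its vehicle inputs with those of combination and docetaxel. Pcdhb17 had the smallest p, at -0.65 ± 0.20 (SE; adjusted p = 0.746): its levels were 9.67, 8.35 and 7.51 CPM in ORIN1001 inputs against 12.9, 13.1 and 13.4 in vehicle inputs. Pcdhb20 was at -0.70 ± 0.27 and Pcdhb9 at -0.85 ± 0.43 (SE). For Pcdhgc3 the value was -0.14 ± 0.24 (SE). In ORIN1001 inputs 7 members lay wholly below vehicle and 1 wholly above, again without a count over all genes.

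**Figure D3:**
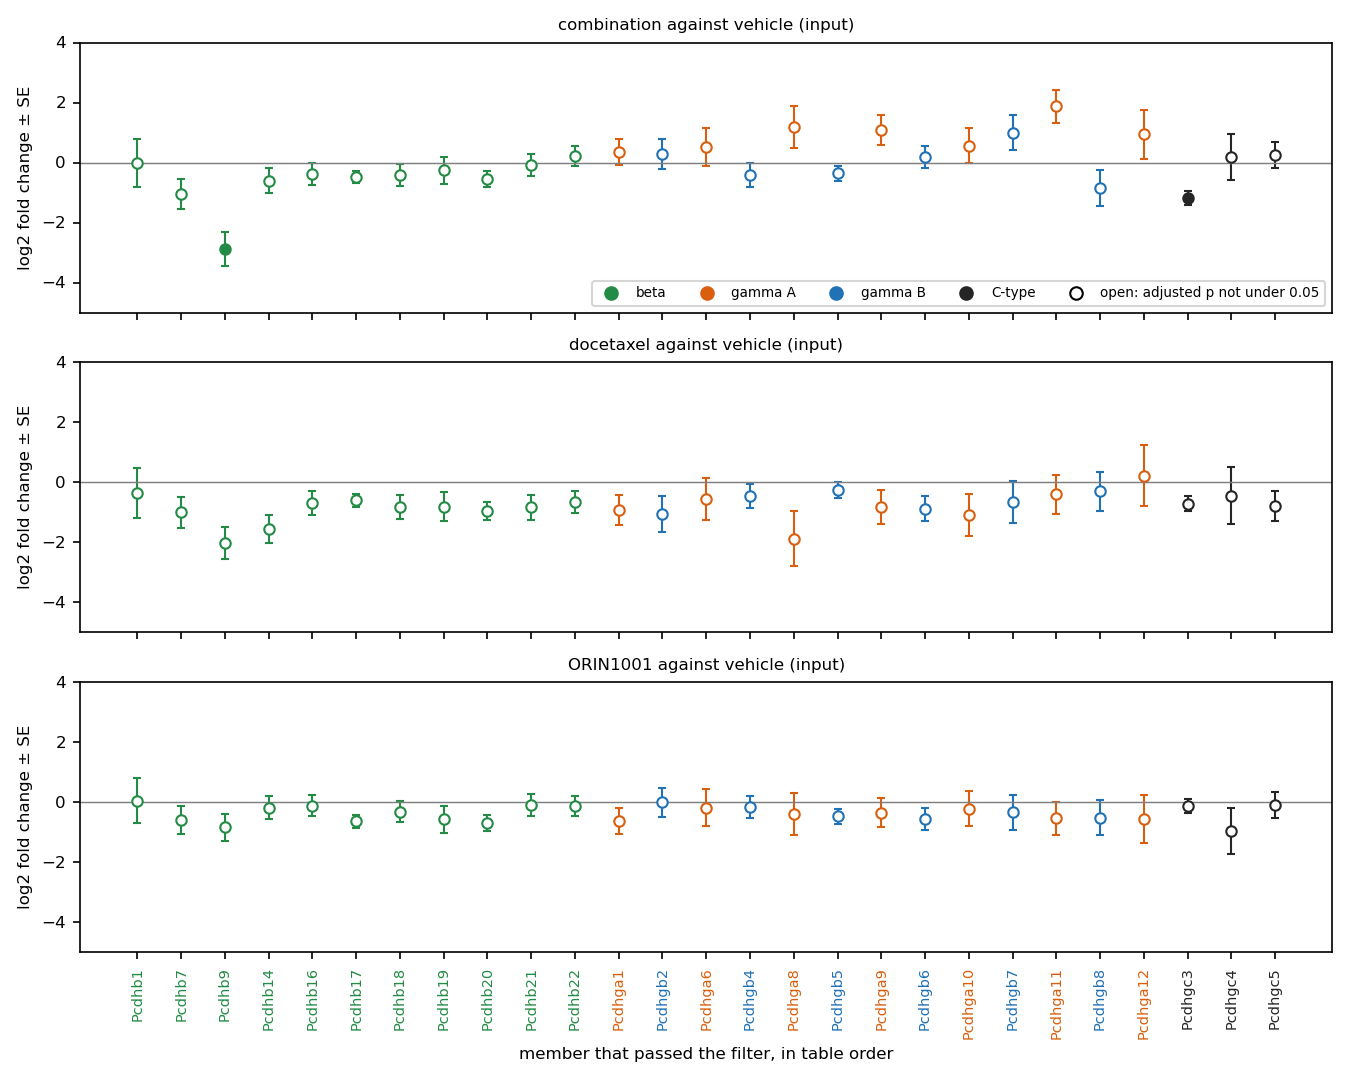
Fitted log2 fold changes with their standard errors (SE) for the 27 members that passed the low-count filter, in combination, docetaxel and ORIN1001 inputs each against vehicle inputs, in table order. Filled points passed an adjusted p of 0.05: Pcdhb9 and Pcdhgc3 in the combination panel and none in the other panels.

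Combination tumours were also set against each drug alone. Against docetaxel, none of 27 members passed edgeR's quasi-likelihood test, where 7.43% of all genes did; 8 members had an unadjusted p under 0.05, DESeq2 called 1, Pcdhga9, and limma-voom 9. Leaving out docetaxel tumour 3 raised the count to 8, all higher in combination tumours, and leaving out combination tumour 1 gave 3. The share of all genes called in these alternatives is not given here, so their counts are not shown to be particular to the family. The members' median was 0.72 beside -0.02 over all genes, and 22 of 27 lay above 0. Every combination input lay above every docetaxel input for 12 of the 58, a count not made over all genes. The smallest p-values were those of γA genes: Pcdhga11 at 2.27 ± 0.67 (SE; adjusted p = 0.0606), Pcdhga8 at 3.05 ± 0.91 (0.0637) and Pcdhga9 at 1.89 ± 0.58 (0.0669). Pcdhga9 had 1.49, 4.97 and 2.19 CPM in combination inputs against 0.749, 0.830 and 1.16 CPM in docetaxel inputs.

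Against ORIN1001, 3 of 27 members passed edgeR's test, where 12.6% of all genes did. Pcdhgc3 was lower in combination tumours, at -1.04 ± 0.24 on the log2 scale (SE; adjusted p = 0.0252), with no overlap between 25.5 to 41.8 CPM in combination and 63.3 to 88.3 CPM in ORIN1001 inputs. Pcdhb9 was lower as well, at -2.03 ± 0.59 (SE; adjusted p = 0.0441). Pcdhga11 was higher in combination tumours, at 2.42 ± 0.57 (SE; adjusted p = 0.0262), with 0.405, 0.359 and 0.393 CPM in ORIN1001 inputs. Leaving out ORIN1001 tumour 2 or 3, or combination tumour 2 or 3, ended all of these calls, and the block by replicate number did so too, with an adjusted p of 0.0509 for Pcdhgc3. Without ORIN1001 tumour 1, 1 call was left, and without docetaxel tumour 3 there were 5, again without the share of all genes in the same run.

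The J2 antibody recovered the γ cluster unevenly: γA, γB and C-type members towards its end were higher in J2 than in input, while Pcdhgc3, the member with the most reads, was lower. Each J2 library was compared with the input of its own tumour. Over all treatments 12 of 26 members were higher in J2 than in input and 1 was lower, so that 13 passed edgeR's test, against 55.0% of all genes. The share of members called in either direction, 13 of 26, was thus close to that of all genes. By direction the shares were not close: 46.2% of members were higher against 25% of all genes, and 3.85% were lower against 30%. The members' median log2 enrichment was 0.55 beside -0.05 over all genes. Of the 16 γ members 9 were higher and 1 was lower, and of the 10 β genes 3 were higher. The γ spans overlap, and how reads shared by several γ genes were counted is not given. The γ calls, and the shares of members built on them, may therefore not be separate observations.

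Pcdhgb7 had the highest enrichment. Its J2 libraries had 5.85, 10.5 and 9.01 CPM in combination, 4.64, 1.98 and 3.30 in docetaxel, 1.90, 1.60 and 2.05 in ORIN1001 and 6.16, 5.86 and 3.53 in vehicle tumours. The inputs of the same tumours had 0.551, 2.45 and 1.26 CPM in combination, 0.428, 0.348 and 2.32 in docetaxel, 0.608, 0.424 and 0.712 in ORIN1001 and 1.12, 0.525 and 0.542 in vehicle tumours. J2 lay above input in 12 of 12 tumours, and the log2 enrichment was 2.47 ± 0.20 (SE; edgeR, adjusted p = 6.61e-07). Pcdhga11 was next at 2.36 ± 0.21 (adjusted p = 9.98e-07) and Pcdhga10 at 2.33 ± 0.22 (1.64e-06). Pcdhga11 lay above its input in 12 of 12 tumours, and Pcdhga10 in 11.

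The C-type genes of the γ cluster split. Pcdhgc4, the isoform that mouse interneurons need for survival, had a log2 enrichment of 2.15 ± 0.24 (SE; edgeR, adjusted p = 5.1e-06) and Pcdhgc5, an isoform of the postnatal brain, one of 1.62 ± 0.19 (7.17e-06). Pcdhgc4 had 8.51, 6.58 and 6.90 CPM in combination J2 libraries, 2.71, 1.58 and 3.71 in docetaxel, 3.80, 2.52 and 2.16 in ORIN1001 and 7.30, 5.17 and 8.42 in vehicle J2 libraries. In the inputs it lay at 0.375 to 2.08 CPM, apart from 6.97 CPM in docetaxel input 3, the only tumour in which J2 was below input. Pcdhgc3 went the other way, at -0.45 ± 0.14 (SE; adjusted p = 0.0140), and lay below its input in 9 of 12 tumours. The 3 exceptions were combination tumours 2 and 3 and docetaxel tumour 3.

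The other enriched γ genes were Pcdhga8 at 1.65 ± 0.31 on the log2 scale, Pcdhga12 at 1.65 ± 0.32, Pcdhga9 at 1.41 ± 0.19 and Pcdhgb6 at 0.99 ± 0.17 (SE). Their adjusted p-values by edgeR ran between 3.03e-05 and 0.000555, and J2 was above input in 11 or 12 of 12 tumours. In table order all enriched γ genes lie from Pcdhga8 onwards, a stretch marked off after the calls were seen. Over the 16 γ members in the fit, enrichment and table order had a rank correlation of only 0.32. Pcdhgb5 (-0.17) and Pcdhgb8 (-0.38) lie within the same stretch and were not called, with J2 above input in 2 and 3 tumours. The γ genes before that stretch that could be tested, Pcdhga1, Pcdhga2, Pcdhgb2 and Pcdhgb4, were not called either, with values between -0.45 and 0.92. The remaining γ genes before it had too few reads to test. Of these, Pcdhga3, Pcdhga4, Pcdhga5, Pcdhga7 and Pcdhgb1 lay above input in 8 or 9 of 12 tumours, and Pcdhga6 in 4. Whether enrichment depends on position was not tested. Among the β genes Pcdhb22 (1.02 ± 0.18), Pcdhb21 (0.63 ± 0.17) and Pcdhb20 (0.48 ± 0.15) were enriched, the last genes of their cluster, and the lowest fitted values of the family were those of Pcdhb9 (-0.74 ± 0.44), Pcdhb7 (-0.63 ± 0.33) and Pcdhgb4 (-0.45 ± 0.24), none of them called. Each of the 13 calls held in every alternative, with adjusted p up to 0.0496 for Pcdhb20. Leaving out all combination tumours and docetaxel tumour 3, a choice made after seeing the data, raised the count to 20, of which 16 were higher and 4 lower. How many of all genes that run called is not given here.

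**Figure D4:**
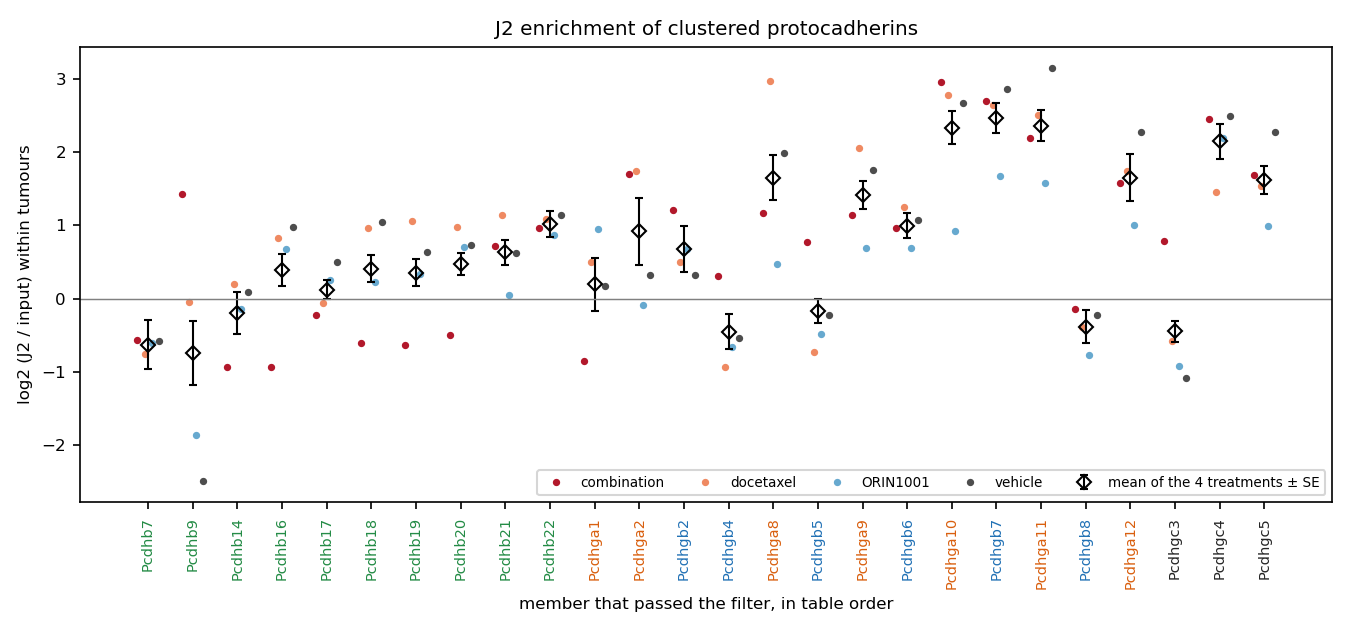
Fitted log2 ratio of J2 to input for the 26 members in the J2 fit, in table order. Each member has 1 coloured point per treatment, the fitted value of that treatment. Diamonds give the fitted mean of the 4 treatments with its standard error (SE). The diamonds of Pcdhgb7, Pcdhga11, Pcdhga10 and Pcdhgc4 lie highest, and that of Pcdhgc3 lies below 0.

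By treatment, the enriched genes of the γ cluster recurred among the calls, whereas the β genes and Pcdhgc3 varied. In combination tumours, where 36.8% of all genes were called (16.3% higher, 20.5% lower), 8 of 26 members were higher in J2 and none lower. They were Pcdhga10 (2.96 ± 0.44, SE), Pcdhgb7 (2.70 ± 0.40), Pcdhgc4 (2.46 ± 0.49), Pcdhga11 (2.19 ± 0.40), Pcdhgc5 (1.68 ± 0.40), Pcdhga9 (1.14 ± 0.39), Pcdhgb6 (0.96 ± 0.36) and Pcdhgc3 (0.79 ± 0.29). In these tumours 7 of 10 β genes lay below 0. The call for Pcdhgc3, at an adjusted p of 0.0448 by edgeR, was lost without combination tumour 2 (0.41, adjusted p = 0.300) or 3 (0.79, 0.149), without ORIN1001 tumour 1 and without the tumour block.

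In docetaxel tumours, where 23.9% of all genes were called (12% higher, 12% lower), 10 of 26 members were higher and none lower. The highest were Pcdhga8 at 2.97, Pcdhga10 at 2.78 and Pcdhgb7 at 2.64 on the log2 scale, and the 3 β genes were Pcdhb20, Pcdhb21 and Pcdhb22 (0.98 to 1.14). This count rested on single tumours: it was 0 without docetaxel tumour 1, 2 without tumour 2 and 16 without tumour 3. In ORIN1001 tumours 5 of 26 were called, against 28.1% of all genes: Pcdhgc4 (2.19), Pcdhgb7 (1.67), Pcdhga11 (1.58) and Pcdhgc5 (1.00) were higher and Pcdhgc3 was lower (-0.92 ± 0.27, SE; edgeR, adjusted p = 0.0223). Leaving out ORIN1001 tumour 1, 2 or 3 lost the Pcdhgc3 call, and without docetaxel tumour 3 the count was 10. None of these counts without a tumour has the share of all genes in the same run beside it.

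In vehicle tumours 14 of 26 were called, against 41.4% of all genes, 12 higher and 2 lower. Pcdhga11 led at 3.15 ± 0.39 (SE), with 6.24, 5.86 and 3.29 CPM in vehicle J2 libraries against 0.574, 0.475 and 0.623 CPM in their inputs. The lower members were Pcdhb9 at -2.49 ± 0.68 and Pcdhgc3 at -1.08 ± 0.28 (SE; edgeR, adjusted p = 0.0068). Here 8 of 10 β genes lay above 0. Without vehicle tumour 2 the count was 8. Without vehicle tumour 3 it was 9, and Pcdhgc3 was no longer called (-0.90, adjusted p = 0.0641).

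The difference in J2 enrichment between combination and vehicle tumours was tested directly, and 5 of 26 members passed edgeR's test, against 29.9% of all genes. Pcdhgc3 had the smallest p. Its J2 libraries had 36.2, 79.4 and 70.2 CPM in combination tumours against 48.1, 35.9 and 33.4 CPM in vehicle tumours, which overlap. The log2 ratios of J2 to input within tumours were -0.21, 1.63 and 0.85 in combination against -0.89, -0.89 and -1.46 in vehicle tumours, with no overlap. The fitted difference was 1.87 ± 0.40 (SE; adjusted p = 0.00417). It passed in every alternative, between 1.43 and 2.30 with adjusted p up to 0.0201. The input of Pcdhgc3 enters this difference and its input comparison alike, so they are not separate evidence.

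For 3 β genes the difference ran the other way. Pcdhb16 had 6.91, 0.877 and 2.60 CPM in combination J2 libraries against 15.1, 18.0 and 11.7 CPM in vehicle J2 libraries, and Pcdhb18 had 0.532, 1.75 and 2.10 against 6.80, 8.47 and 5.85 CPM. Neither pair of groups overlapped. The inputs were closer, with 4.84, 4.78 and 7.03 CPM of Pcdhb16 in combination against 7.58, 8.00 and 6.96 CPM in vehicle inputs. The fitted differences in enrichment were -1.90 ± 0.63 for Pcdhb16 (SE; edgeR, adjusted p = 0.0338), -1.66 ± 0.54 for Pcdhb18 (0.0308) and -1.23 ± 0.43 for Pcdhb20 (0.0436). Pcdhb20 had 3.19, 2.63 and 1.80 CPM in combination J2 libraries against 7.37, 7.99 and 9.38 CPM in vehicle J2 libraries, again without overlap. The fifth call, Pcdhb9 at 3.92 ± 1.38 (SE; adjusted p = 0.0457), rests on 1, 0 and 3 reads in the combination J2 libraries against 1, 3 and 1 in the vehicle J2 libraries. All 4 β calls were lost when vehicle tumour 1, 2 or 3, or combination tumour 2 or 3, was left out. The ribosomal share of the combination J2 libraries given above moves with this comparison. Marker sums moved with it too: the 9 fibroblast markers summed to 1048 to 3894 CPM in combination against 291 to 306 CPM in vehicle J2 libraries, the 8 epithelial markers to 2092 to 2677 against 901 to 1276 CPM, and the 6 macrophage markers to 237 to 437 against 77.7 to 121 CPM. The 10 neuronal markers summed to 31.9 to 39.0 CPM in combination against 173 to 246 CPM in vehicle J2 libraries. Of these 10, 7 had no read in the combination and 5 none in the vehicle J2 libraries. Only Map2 passed the low-count filter of the J2 fit, so this sum does not show a shift of neuronal markers as a set. The part of the marker sums and of the ribosomal share in the 5 differences was not tested.

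The same difference was tested for each drug alone. For docetaxel against vehicle no member and no gene passed edgeR's test, 0.0% of 17338, with 730 genes and 1 member, Pcdhb9, at an unadjusted p under 0.05. DESeq2 called 6 genes and limma-voom none, no member among them. Pcdhb9 stood at 2.44 ± 1.12, Pcdhgc4 at -1.03 and Pcdhb17 at -0.56. For ORIN1001 against vehicle edgeR likewise called none, 0.0%, with 605 genes and 4 members at an unadjusted p under 0.05. DESeq2 called none either, whereas limma-voom with sample weights called 3687 genes, among them 8 members, all lower in ORIN1001 tumours. The smallest p-values by edgeR were those of Pcdhga10 (-1.75 ± 0.57, SE), Pcdhga11 (-1.57 ± 0.56) and Pcdhgc5 (-1.28 ± 0.48). Pcdhga11 had 1.34, 0.972 and 1.19 CPM in ORIN1001 J2 libraries against 6.24, 5.86 and 3.29 CPM in vehicle J2 libraries, without overlap. The value of 22 of 26 members lay below 0, with a median of -0.30 beside 0.01 over all genes.

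The make-up of the family's reads summarises these levels as shares. Pcdhgc3 held 34.6 ± 10.5% of the family's reads in combination inputs, 45.8 ± 10.4% in docetaxel, 55.4 ± 2.15% in ORIN1001 and 50.4 ± 3.59% in vehicle inputs (SD, n = 3 each). The docetaxel mean was lowered by docetaxel input 3, at 34.4% of only 125 reads. Docetaxel inputs 1 and 2 had 48.0% and 54.9%, near the 46.4 to 53.3% of the vehicle inputs. In the J2 libraries it held 34.2 ± 6.35% in combination, 30.9 ± 11.0% in docetaxel, 34.6 ± 7.63% in ORIN1001 and 21.7 ± 2.48% in vehicle tumours. The mean share was thus lower in J2 libraries than in inputs for docetaxel, ORIN1001 and vehicle tumours. In combination tumours the means hid opposite moves, with 27.5% in J2 against 43.0% in input for tumour 1, and 34.8% against 22.9% for tumour 2. The docetaxel mean did so too: docetaxel tumour 3 had 41.3% in J2 against 34.4% in input, while docetaxel tumours 1 and 2 were lower in J2. The β genes held 33.0 ± 2.01% of combination and 28.5 ± 3.84% of vehicle inputs, but 18.1 ± 8.38% of combination and 41.6 ± 4.44% of vehicle J2 libraries. The γA genes held 10.3 ± 5.80% of combination inputs against 3.41 ± 0.846% of vehicle inputs, and 19.3 ± 2.30% of combination against 12.9 ± 1.91% of vehicle J2 libraries. Shares within a family depend on one another, so a lower share of Pcdhgc3 raises the others without any change in their own level.

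**Figure D5:**
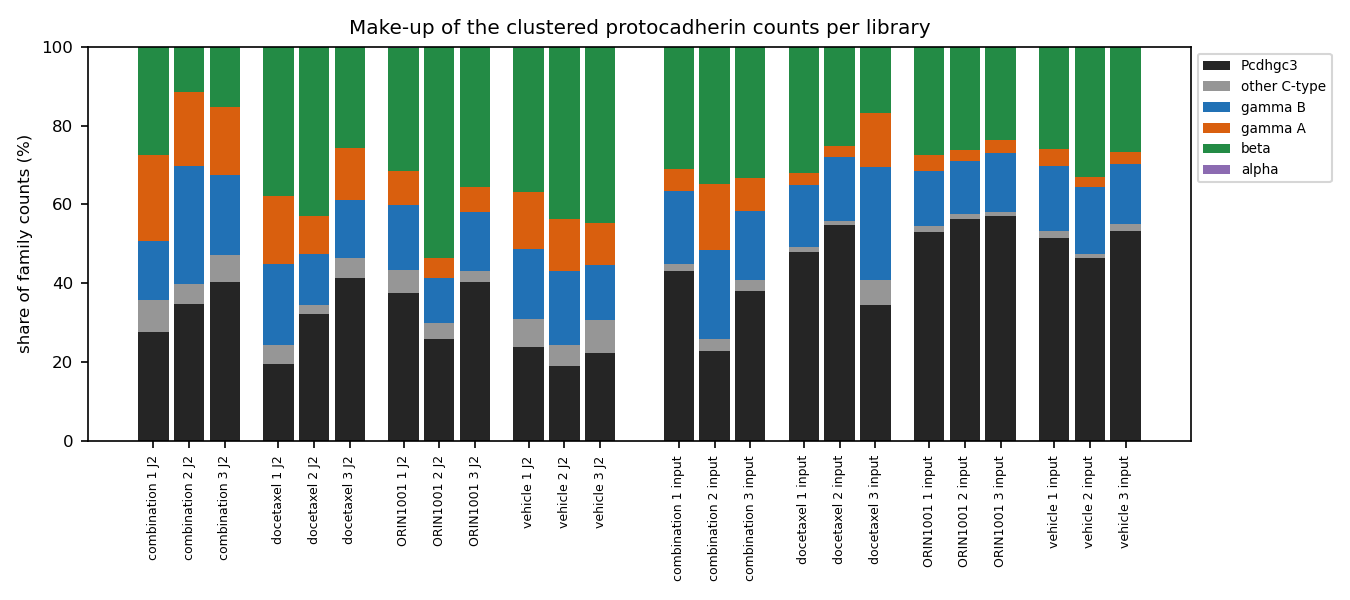
Share of the family's reads (%) held by Pcdhgc3, the other C-type, the γB, γA, β and α genes in each library, 1 bar per library. Pcdhgc3 makes up 46.4 to 53.3% of the vehicle inputs and 22.9 to 43.0% of the combination inputs, and β genes 36.5 to 44.7% of the vehicle J2 libraries and 11.5 to 27.5% of the combination J2 libraries.

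Genes around the family were examined from lists chosen for their known ties to it. In combination inputs against vehicle, where 4.77% of all genes passed edgeR's test, none of the tested genes of 7 lists did. In docetaxel and ORIN1001 inputs against vehicle no gene of any kind passed, so the lists' counts of 0 there say nothing about the lists. These were 7 non-clustered protocadherins, 11 looping factors (CTCF and cohesin genes among them), 12 chromatin and DNA methylation regulators, 15 signalling partners, 7 protein-cleaving enzymes, 6 classical cadherins and 14 neighbouring genes. Their median log2 fold changes in combination against vehicle ran between -0.39 for the cleaving enzymes and 0.08 for the chromatin regulators. Against ORIN1001, where 12.6% of all genes passed, combination tumours had more Pcdh10 (2.06 ± 0.54, SE; adjusted p = 0.0345), a non-clustered protocadherin, more of the DNA methyltransferase Dnmt3b (0.71 ± 0.18; 0.0337) and of the co-repressor Trim28 (0.54 ± 0.14; 0.0315). They had less Pcdh12 (-1.21 ± 0.36; 0.0472), Pcdh19 (-1.36 ± 0.38; 0.0392) and Cdh5 (-1.58 ± 0.29; 0.0167), the vascular endothelial cadherin. The 7 endothelial markers, Cdh5 included, summed to 28.3 to 43.1 CPM in combination against 56.7 to 108 CPM in ORIN1001 inputs, and their part in these differences was not tested.

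The same lists were set beside the family in J2 against input, where 55.0% of all genes were called. Over all treatments 5 of 6 classical cadherins were lower in J2 than in input and none was higher, with Cdh1, the epithelial cadherin, at -0.54 and Cdh5 at -1.59 on the log2 scale. Of 7 non-clustered protocadherins, Pcdh18 (-0.78), Pcdh12 (-0.72) and Pcdh7 (-0.27) were lower and Pcdh19 (0.53) was higher. Among 14 neighbours 5 were lower and 2 higher: Fchsd1 at 0.64, and Slc25a2, which lies between the β and γ clusters, at 1.55 ± 0.32 (SE; edgeR, adjusted p = 0.00077). Slc25a2, a mitochondrial ornithine carrier, averaged 0.713 CPM in combination, 1.28 in docetaxel, 1.61 in ORIN1001 and 1.75 in vehicle J2 libraries, against 0.930, 0.129, 0.511 and 0.522 CPM in the inputs of the same treatments. Of the 12 chromatin regulators 5 were higher, led by the DNA methyltransferase Dnmt3a at 1.28, and Smchd1, which keeps the clusters silenced in mouse, was lower at -0.34. Of the 11 looping factors Mau2 (0.76) and Nipbl (0.44), which load cohesin, were among 4 that were higher, and the cohesin subunits Smc1a (-0.73) and Smc3 (-0.53) were lower.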

How the data were processed

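Total RNA and J2-immunoprecipitated RNA from 12 tumours were sequenced from a stranded ribosomal-depleted kit, per the labels' protocols. The deposited gene table holds raw read counts per gene identifier; the tools featureCounts 2.0.3, STAR 2.7.3a and fastp 0.23.2 and the build mm10 are listed in the submitters' processing notes, without role or settings. Whether strand was used and how reads in several genes were counted is not given in the sources used here, so members sharing constant exons or overlapping spans, and antisense reads, are uncertain. Symbols came from a gene-name table and spans from RefSeq (GRCm38.p6); 58 RefSeq symbols fit the rule, of which 1, Pcdha10, had no entry under that symbol.

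Counts were tested with edgeR 4.0.16 (R 4.3.3): TMM, filterByExpr (minimum count 10, minimum total 15), glmQLFit and glmQLFTest, with Benjamini-Hochberg adjustment at 0.05 over all genes that passed (17768 in inputs, 17338 with J2). Inputs were fitted over 12 libraries by treatment, and J2 over 24 libraries with a block per tumour and a J2 term per treatment, since the design text pairs each J2 library with an input. Input and J2 of 1 tumour deviated together above a correlation of 0.1 in 10 of 12 tumours. The exceptions were combination tumours 1 and 2, at 0.091 and 0.098. Combination tumour 3 was barely above, at 0.106, whereas the vehicle, ORIN1001 and docetaxel tumours lay between 0.214 and 0.720. The pairing is thus weakest in the combination tumours. Ratios per tumour used log2 of CPM plus 0.1. The labels call the replicates biological. Alternatives were DESeq2 1.42.0, limma-voom 3.58.1, other scalings and filters, a replicate block and leaving out each tumour. The method was tested on simulated counts with the same spread for every gene and no tumour effect. Apart from the genes set to change, all simulated libraries had the same make-up. That test therefore does not cover libraries rich in ribosomal RNA such as those described above.

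The members and lists were chosen with earlier results of these data known. Members named are the 3 with the highest input CPM of each subfamily (all C-type genes), those past the threshold (up to 10 per comparison, or the 3 smallest p), the extremes of J2 enrichment and those at the filter's edge; Pcdhb6, Pcdhgb2 and others outside it are named as ends of a range or members of a count.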

Additional observations from a re-analysis of the deposited data

Results flagged for a closer look

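The effect of J2 differed between combination and vehicle tumours for 5 members by the interaction term of edgeR's fit over 24 libraries, on the log2 scale. The difference was 1.87 for Pcdhgc3, 3.92 for Pcdhb9, -1.90 for Pcdhb16, -1.66 for Pcdhb18 and -1.23 for Pcdhb20. In J2 against input, Pcdhgc3 stood at 0.79 in combination and -1.08 in vehicle tumours. Pcdhb9 has 0 to 3 reads in each of these J2 libraries. Over all genes 29.9% passed the same test, and the combination J2 libraries held 22.7 to 56.6% of their gene counts on ribosomal RNA loci; the part of this in the 5 differences was not tested.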

How the results depend on the processing

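No value changed direction while called. Counting each named member's result once per alternative, 1330 such values kept their side of the threshold, 181 lost the call and 14 gained it. With limma-voom the members called were 7 in combination against vehicle inputs, 9 against docetaxel and 8 against ORIN1001; 14, 16 and 14 in J2 against input for combination, docetaxel and ORIN1001; and 8 in each change of J2 enrichment for combination and ORIN1001 against vehicle. DESeq2 called 1 in combination against docetaxel. The replicate block on inputs left 0 calls in combination against vehicle and 0 against ORIN1001. Of 18 same-number pairs of inputs 0 correlated above 0.1, with values between -0.209 and 0.0929. These values do not settle whether a number stands for a shared batch, and the labels do not say. With no tumour block in the J2 fit (no replicate block of input and J2 from the same tumour) the calls were 5 in combination, 2 in ORIN1001 and 2 in the change for combination. Genes and repeat families in 1 table gave 3 in ORIN1001 and 2 in the change for combination. Without the combination tumours and docetaxel tumour 3, chosen after seeing the data, 20 were called over all treatments. The causes were not tested. Unless a number of genes stands beside them, member counts under an alternative or without a tumour, here, above and below, lack the share of all genes called in the same run. They do not show whether a change in the count is particular to the family.

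Leaving out 1 tumour at a time gave 0 to 3 in combination against vehicle inputs, 0 to 8 against docetaxel and 0 to 5 against ORIN1001, and 0 in docetaxel and ORIN1001 against vehicle. In J2 it gave 13 to 15 over all treatments, 5 to 11 in combination, 0 to 16 in docetaxel, 2 to 10 in ORIN1001, 8 to 18 in vehicle and 1 to 7 in the change for combination.

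Summed family levels moved with the total used. On raw gene totals they were 138 CPM in combination, 164 in ORIN1001 and 196 in vehicle inputs and 122 in combination J2; without ribosomal loci 141, 165 and 198 in those inputs. On totals of genes and repeats they were 78.0 in docetaxel inputs, and 96.9 in combination, 102 in docetaxel, 101 in ORIN1001 and 144 in vehicle J2. Upper-quartile scaling moved the median of all genes in combination against vehicle to 0.10, beside -0.03 by TMM. Depth limits every member under about 10 reads per library, the α genes and Pcdhb9 in J2 above all.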
